A study of Homo sapiens with 4 samples.

Results

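Glycolysis and hypoxia response genes are described here through 39 genes chosen by name, of which 18 are glycolytic enzymes and 21 are other genes of the response to low oxygen. Each gene was read from the brightest probe set that the platform annotation gives a single symbol, by its mean log2 signal over the 4 arrays. By this rule 37 of the 39 genes had a probe set, of 19775 genes so represented in all. The tumour-associated carbonic anhydrase CA9 and the lactate exporter SLC16A3 had none in the annotation used and were not analysed here. A gene was called expressed when its mean log2 signal reached the floor of 5.73, the median over 54613 non-control probe sets. All 37 genes passed, as did 13180 genes in total.

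The RNA came from HCCLM3, a hepatocellular carcinoma cell line, sorted with magnetic beads for EpCAM, an adhesion protein of epithelial cells. EpCAM-positive cells were given 40 µM antagomir-429, an antisense inhibitor of the microRNA miR-429, or 40 µM of a negative-control (NC) antagomir. EpCAM-negative cells were given 100 nM miR-429 mimic or 100 nM NC mimic. Cells were treated for 4 days, and each of the 4 groups was measured on 1 Affymetrix array. The labels name no low-oxygen treatment, and the growth medium given for both sorts contained serum. Mimics went in with a transfection reagent, whereas the cholesterol-linked antagomir was added in medium without serum, and serum followed some hours later. The sort, the kind of oligonucleotide and its delivery therefore differ together between EpCAM-positive and EpCAM-negative arrays and cannot be told apart. With 1 array per group no test was possible within this design, and no value below has a replicate.

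Glycolysis turns glucose into pyruvate, and lactate dehydrogenase turns pyruvate into lactate when respiration is limited or, as in many tumours, even in oxygen. When oxygen is low, prolyl hydroxylases of the EGLN family stop marking the transcription factor HIF1A for destruction, and HIF then switches on most glycolytic genes together with genes for blood vessel growth, mitophagy and collagen maturation. HIF1A is controlled mainly at the level of its protein, which arrays do not measure.

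The oligonucleotides of the study act on miR-429, whose mature sequence is shown with its family relatives because the seed, bases 2 to 8 from the 5′ end and in capitals here, sets which messages a microRNA binds. The sequences are those of RefSeq, with GRCh38.p14 coordinates.
hsa-miR-429 (chr1:1169055-1169076, plus strand): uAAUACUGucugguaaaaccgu
hsa-miR-200b-3p (chr1:1167160-1167181, plus strand): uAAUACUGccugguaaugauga
hsa-miR-200c-3p (chr12:6963742-6963764, plus strand): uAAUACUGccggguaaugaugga
hsa-miR-200a-3p (chr1:1167916-1167937, plus strand): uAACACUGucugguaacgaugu
hsa-miR-141-3p (chr12:6964155-6964176, plus strand): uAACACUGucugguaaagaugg
miR-429 shares its seed AAUACUG with miR-200b-3p and miR-200c-3p, while miR-200a-3p and miR-141-3p have the seed AACACUG.

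The trimmed mean signal was 500.1 on every array. Bacterial and phage transcripts added as hybridisation controls were nonetheless dimmer on the miR-429 mimic array than on the NC mimic array, by a mean log2 ratio of -0.42 over 18 probe sets. The same controls had -0.20 for the NC antagomir array over the NC mimic array and 0.03 for antagomir-429 over the NC antagomir. The 24 poly-A control probe sets had -0.87, -0.44 and 0.08 in the same 3 comparisons. GAPDH 3′ to 5′ signal ratios, a check of RNA integrity, were 0.900 to 0.922. Those of actin were higher and less even, at 3.07 on the antagomir-429 array, 3.12 on the NC antagomir array, 2.63 on the miR-429 mimic array and 3.41 on the NC mimic array. Whether these differences have a part in the results was not tested beyond the scaling to the hybridisation controls given below. The sort for EpCAM was not visible in EPCAM mRNA: in EpCAM-positive cells its signal was 913 under antagomir-429 and 1235 under the control, against 3838 under the mimic and 1106 under the control in EpCAM-negative cells. Of 8 liver markers 6 had a probe set and only AFP and APOA1 reached the floor, both dimly (summed list signal 329 to 465 per array). The keratins KRT8 and KRT18 and the filament protein VIM were bright. The other epithelial markers were not all so: KRT19 and CDH1 were under the floor. Of the other mesenchymal markers, FN1 (51.5 to 85.4) and ZEB1 (65.2 to 123) were dim, and CDH2 had 378 to 835. Of 5 leukocyte markers 3 were measured and only CD3E passed the floor, with summed signals of 98.6 to 185 per array.

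**Figure D1:**
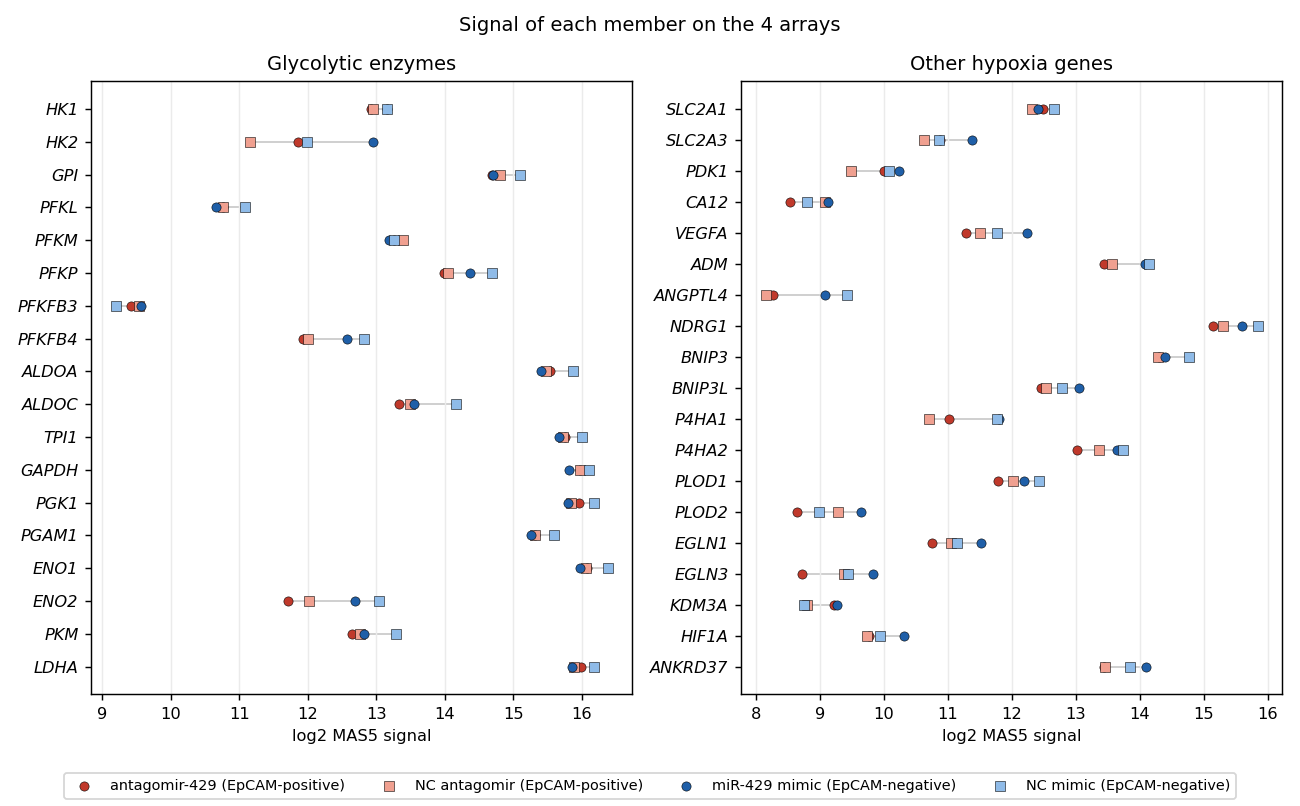
Signal of each of the 37 measured genes on every array, on a log2 scale, with glycolytic enzymes on the left and the other members on the right. Circles are arrays with a miR-429 reagent and squares their controls; red is EpCAM-positive and blue EpCAM-negative. Red points lie left of blue points for ENO2, ANGPTL4, P4HA1, NDRG1 and ADM, while for ENO1, TPI1 and LDHA the NC mimic square lies highest.

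The clearest pattern set the sorts apart. For 21 of 37 members both EpCAM-positive arrays lay below both EpCAM-negative arrays, and for 0 members they lay above, whereas over all expressed genes 18.9% lay below and 17.2% above. Among the members other than glycolytic enzymes the count was 14 of 19, or 10 to 15 under other scalings, and among the enzymes 7 of 18. The median difference of mean log2 signals, EpCAM-positive minus EpCAM-negative, was -0.43 for the other members and -0.12 for the enzymes, beside 0.00 for all expressed genes. In bulk RNA, fewer cells that express a gene and less of its RNA per cell cannot be told apart.

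Among glycolytic enzymes, those with both EpCAM-positive arrays below both EpCAM-negative arrays were particular isozymes and regulators. Brightness limits how this can be read. Of the 100 brightest genes, ENO1, TPI1, GAPDH, PGK1 and LDHA among them, 0 lay below in this way and 1 above. All 100 were lower on the miR-429 mimic array than on the NC mimic array. Isozyme and brightness were not told apart here. ENO2, the enolase best known from neurons, had a signal of 3360.5 on the antagomir-429 array and 4164 on its control, against 6608 on the miR-429 mimic array and 8388 on its control. Its sorts did not overlap, and the log2 ratio of the NC antagomir array over the NC mimic array was -1.01, where the 200 expressed genes nearest in signal had a robust standard deviation (SD) of 0.26 around a median of 0.03. ENO1, the enolase of most tissues, had 68906 (antagomir-429) and 68282 (NC antagomir) in EpCAM-positive cells, against 64186 (mimic) and 85342 (NC mimic) in EpCAM-negative cells, so its sorts overlapped and only the NC mimic array was high. The other enzymes whose sorts did not overlap were HK1, HK2, PFKP, PFKFB4, ALDOC and PKM. This count depended on the scaling: it was 14 of 18 enzymes with quantile normalization and with scaling to the hybridisation controls, 5 of 18 with median centring, beside 17.8%, 16.9% and 16.4% of expressed genes.

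HK2, the hexokinase that traps glucose at the start of the pathway and is induced in many tumours, had a signal of 3707 on the antagomir-429 array and 2271 on its control, against 7962 on the miR-429 mimic array and 4050.3 on its control. Both EpCAM-positive arrays were lower than both EpCAM-negative arrays, and HK2 had the widest span over the 4 arrays of any member, 1.81 on the log2 scale. HK1, the hexokinase of most tissues, had 7737 (antagomir-429) and 7891 (NC antagomir) in EpCAM-positive cells, against 9108 (mimic) and 9087 (NC mimic) in EpCAM-negative cells, which did not overlap either but spanned 0.24 in all. PFKFB4, which makes the sugar phosphate that activates phosphofructokinase, had 3903 (antagomir-429) and 4098 (NC antagomir), against 6067 (mimic) and 7236 (NC mimic). PFKFB3, an enzyme of the same family, showed no such gap, with 687 (antagomir-429) and 745 (NC antagomir) in EpCAM-positive cells, against 759 (mimic) and 586 (NC mimic) in EpCAM-negative cells.

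ALDOC, an aldolase enriched in brain, had 10288 on the antagomir-429 array and 11523 on its control, against 12008 on the miR-429 mimic array and 18429 on its control. ALDOA, the aldolase of muscle and most other cells, had 47452 (antagomir-429) and 45639 (NC antagomir), against 43526 (mimic) and 59837 (NC mimic), and its sorts overlapped. PFKP, the platelet-type phosphofructokinase, had 16286 (antagomir-429) and 16912 (NC antagomir) in EpCAM-positive cells, against 21070.2 (mimic) and 26307 (NC mimic) in EpCAM-negative cells, with a log2 difference between the sorts of -0.50. Both other phosphofructokinases overlapped: the liver-type PFKL had 1745 (antagomir-429) and 1732 (NC antagomir), against 1619 (mimic) and 2164 (NC mimic), a difference of -0.11, and the muscle-type PFKM had 9789 (antagomir-429) and 10717 (NC antagomir), against 9335 (mimic) and 9803 (NC mimic), a difference of 0.10. PKM, pyruvate kinase, had 6376 (antagomir-429) and 6928 (NC antagomir), against 7251 (mimic) and 9961 (NC mimic), a difference of -0.35, without overlap.

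On their brightest probe sets, the remaining enzymes of the common trunk differed between the sorts by small amounts. Small amounts were general among bright genes. The 100 brightest genes had differences of -0.11 to 0.16, with a median of 0.01, and ENO1 was the lowest of them. TPI1 (triose phosphate isomerase), GAPDH, PGK1 (phosphoglycerate kinase), PGAM1 (phosphoglycerate mutase), GPI (glucose phosphate isomerase) and LDHA had differences between the sorts of -0.15 to 0.01 on the log2 scale. For PGK1 this depended on the probe set. Some of its bright probe sets had -0.33 and -0.41, with both EpCAM-positive arrays below both EpCAM-negative arrays, and the rest had -0.26 to 0.01. For GAPDH the signals were 64133 (antagomir-429) and 64462 (NC antagomir) in EpCAM-positive cells, against 57688 (mimic) and 70645 (NC mimic) in EpCAM-negative cells. For LDHA they were 65082 (antagomir-429) and 60558 (NC antagomir), against 59239 (mimic) and 74218 (NC mimic). In all, the NC mimic array was the highest of the 4 for 14 of 18 enzymes, where 29.6% of expressed genes had their highest value there. High values on that array were general among bright genes and not particular to the enzymes. Of the 100 brightest genes, 100 were lower on the miR-429 mimic array than on the NC mimic array. On the NC antagomir array 99 were lower than on the NC mimic array. The miR-429 mimic array was the highest for 12 of the 19 other members, beside 28.6% of expressed genes. These bright messages have processed pseudogenes, and several of their probe sets are of the kind marked as cross-hybridising, so signal from near-identical copies cannot be separated.

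Of the members outside glycolysis, ANGPTL4 stood lowest in EpCAM-positive cells. This secreted inhibitor of lipoprotein lipase had a signal of 309 on the antagomir-429 array and 285 on its control, against 540.5 on the miR-429 mimic array and 690.3 on its control. The sorts did not overlap, and the control arrays differed by a log2 ratio of -1.28, with a robust SD of 0.38 among genes of like signal. The other ANGPTL4 probe set had a control log2 ratio of -0.48, under 2-fold. P4HA1, a catalytic subunit of the collagen prolyl hydroxylase, had 2064 (antagomir-429) and 1665 (NC antagomir), against 3549.7 (mimic) and 3484 (NC mimic), and a control log2 ratio of -1.07 (robust SD 0.25). ENO2, ANGPTL4 and P4HA1 were the 3 members of 37 that were at least 2-fold lower on the NC antagomir array than on the NC mimic array, where 4.7% of expressed genes were. None (0 of 37) was at least 2-fold higher, where 3.62% of expressed genes were (8.32% either way). At 1.5-fold 8 members were lower, beside 12%, and 0 higher, beside 10.3%. With scaling to the hybridisation controls 1 member, ANGPTL4, was still at least 2-fold lower, beside 3.07% of expressed genes.

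The promoters of these 3 genes and of HK2 are shown because these genes had the widest gaps between the sorts. Each sequence runs 5′ to 3′ from 250 bases before to 50 bases after the transcription start in RefSeq, on GRCh38.p14, and the capitals mark the core letters of a hypoxia response element, ACGTG or GCGTG, on either strand. HK2 has a pair of annotated starts, and both are given.
ENO2 (chr12:6914330-6914629, plus strand): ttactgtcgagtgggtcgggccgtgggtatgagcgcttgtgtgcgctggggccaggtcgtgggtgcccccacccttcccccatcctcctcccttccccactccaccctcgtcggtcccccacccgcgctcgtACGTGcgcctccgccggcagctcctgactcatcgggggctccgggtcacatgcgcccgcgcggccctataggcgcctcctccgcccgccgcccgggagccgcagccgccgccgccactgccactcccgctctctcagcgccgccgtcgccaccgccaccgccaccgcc
ANGPTL4 (chr19:8363905-8364204, plus strand): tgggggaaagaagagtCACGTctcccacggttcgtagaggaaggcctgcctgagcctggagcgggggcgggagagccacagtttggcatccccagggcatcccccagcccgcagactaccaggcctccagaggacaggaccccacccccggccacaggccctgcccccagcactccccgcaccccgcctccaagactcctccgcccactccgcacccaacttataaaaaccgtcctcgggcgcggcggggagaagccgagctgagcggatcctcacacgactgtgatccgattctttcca
P4HA1 (chr10:73096817-73097116, minus strand): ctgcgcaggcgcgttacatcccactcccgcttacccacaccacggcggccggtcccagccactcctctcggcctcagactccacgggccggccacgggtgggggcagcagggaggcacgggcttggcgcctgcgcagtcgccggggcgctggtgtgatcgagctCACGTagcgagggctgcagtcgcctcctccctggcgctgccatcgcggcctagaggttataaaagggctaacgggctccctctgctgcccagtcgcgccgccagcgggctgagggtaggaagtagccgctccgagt
HK2 (chr2:74833877-74834176, plus strand): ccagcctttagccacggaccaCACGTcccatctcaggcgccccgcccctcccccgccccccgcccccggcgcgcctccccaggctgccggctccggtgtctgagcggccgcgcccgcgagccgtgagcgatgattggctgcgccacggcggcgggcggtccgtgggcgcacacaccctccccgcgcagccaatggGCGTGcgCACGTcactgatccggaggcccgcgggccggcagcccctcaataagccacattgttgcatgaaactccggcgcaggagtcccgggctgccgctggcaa
HK2 (chr2:74834920-74835219, plus strand): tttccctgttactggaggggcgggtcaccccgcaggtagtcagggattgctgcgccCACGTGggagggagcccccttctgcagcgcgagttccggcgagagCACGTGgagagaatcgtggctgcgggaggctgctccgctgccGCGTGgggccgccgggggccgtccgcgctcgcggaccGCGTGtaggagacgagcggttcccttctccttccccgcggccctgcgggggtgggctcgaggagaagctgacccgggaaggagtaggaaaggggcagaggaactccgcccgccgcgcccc
ENO2, ANGPTL4 and P4HA1 each hold 1 match, all of them ACGTG, beginning 118, 234 and 86 bases before the start. The first HK2 start has 2 ACGTG matches and 1 GCGTG match, and the second has 4 ACGTG matches, made by the palindrome CACGTG, which reads as ACGTG on both strands, and 2 GCGTG matches. Over all members 35 genes had 63 such windows, of which 25 (39.7%) held ACGTG, beside 24.9% of the windows of expressed genes and 21.4% of all 35116 windows. GCGTG was in 41.3% of the members' windows, 46.9% of those of expressed genes and 36.5% of all. Windows of 1 gene can overlap, the windows of members were richer in G and C (median 68.7% against 64.3% for expressed genes), and a match describes letters and not a bound site.

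The other secreted and stress genes were also lower on both EpCAM-positive arrays. Within the EpCAM-negative sort, VEGFA and BNIP3L were higher with the mimic than with its control, and ADM, NDRG1 and BNIP3 were lower. The direction for VEGFA and BNIP3L depended on the probe set. The dimmer VEGFA probe sets had log2 ratios of 0.28, -0.16 and -0.03 with the mimic, and the dimmer BNIP3L probe set had -0.02. VEGFA, the main growth factor of blood vessels, had 2486 (antagomir-429) and 2901 (NC antagomir) in EpCAM-positive cells, against 4827 (mimic) and 3507 (NC mimic) in EpCAM-negative cells, a log2 difference between the sorts of -0.62. ADM, the vasodilator peptide adrenomedullin, had 11171 (antagomir-429) and 12168 (NC antagomir), against 17409 (mimic) and 18128 (NC mimic), a difference of -0.61. NDRG1, a stress-induced growth suppressor, had 36308 (antagomir-429) and 40258 (NC antagomir), against 49444 (mimic) and 58823 (NC mimic), a difference of -0.50. The mitophagy receptor BNIP3 had 20106 (antagomir-429) and 19935 (NC antagomir), against 21517 (mimic) and 27810.4 (NC mimic), a difference of -0.29, and BNIP3L, its close relative, had 5608 (antagomir-429) and 5906 (NC antagomir), against 8484 (mimic) and 7038 (NC mimic), a difference of -0.43. For all 5 genes the sorts did not overlap. The size of the BNIP3 gap depended on the probe set, since its other probe set had -0.57.

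Of the collagen-modifying enzymes and the oxygen sensing and chromatin genes, all except PLOD2 and KDM3A had both EpCAM-positive arrays below both EpCAM-negative arrays, with group medians of -0.45 and -0.44 for the difference between the sorts. P4HA2 had 8307 (antagomir-429) and 10530.4 (NC antagomir), against 12865 (mimic) and 13583 (NC mimic), a difference of -0.50, and the lysyl hydroxylase PLOD1 had 3523 (antagomir-429) and 4157 (NC antagomir), against 4657 (mimic) and 5518 (NC mimic), a difference of -0.41. PLOD2, another lysyl hydroxylase, had overlapping sorts, with 399.6 on the antagomir-429 array and 622 on its control, against 802 on the miR-429 mimic array and 508 on its control. Of the HIF hydroxylases, EGLN1 had 1717 (antagomir-429) and 2121 (NC antagomir), against 2936 (mimic) and 2274 (NC mimic), a difference of -0.44, and EGLN3 had 424 (antagomir-429) and 665 (NC antagomir), against 909.9 (mimic) and 693 (NC mimic), a difference of -0.58. Their sorts did not overlap. On these probe sets the NC antagomir and NC mimic arrays were close, with log2 ratios of -0.10 and -0.06. There the gap came mainly from the arrays with a miR-429 reagent. This depended on the probe set. Dimmer EGLN1 probe sets past the floor had control log2 ratios of -0.43 and -0.38. The dimmer EGLN3 probe set had a control log2 ratio of -0.43 and a difference between the sorts of -0.03. HIF1A itself had 876 (antagomir-429) and 854 (NC antagomir), against 1271 (mimic) and 977 (NC mimic), a difference of -0.37. ANKRD37, a small ankyrin-repeat protein induced through HIF, had 11062 (antagomir-429) and 11189 (NC antagomir), against 17586 (mimic) and 14760.3 (NC mimic), a difference of -0.53, while the histone demethylase KDM3A, at 594 (antagomir-429) and 443 (NC antagomir), against 618 (mimic) and 432 (NC mimic), had a difference of -0.01.

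Among transport and fuel-choice genes read from their brightest probe sets, only PDK1, the kinase that inhibits pyruvate dehydrogenase, had sorts apart. It had 1027 (antagomir-429) and 719 (NC antagomir), against 1211 (mimic) and 1086 (NC mimic). SLC2A1, the glucose transporter of most tissues, had 5756 (antagomir-429) and 5070.2 (NC antagomir), against 5464 (mimic) and 6475 (NC mimic), a difference of -0.14. SLC2A3, the high-affinity glucose transporter, had 1873 (antagomir-429) and 1579 (NC antagomir), against 2663 (mimic) and 1859 (NC mimic), a difference of -0.37. CA12, a carbonic anhydrase of the cell surface, had 371 (antagomir-429) and 542 (NC antagomir), against 559 (mimic) and 445 (NC mimic), a difference of -0.15. All 3 overlapped between the sorts on these probe sets, but this depended on the probe set. The dimmer SLC2A1 probe set (-0.51) and the dimmest of SLC2A3 (-0.53) had both EpCAM-positive arrays below both EpCAM-negative arrays. The remaining SLC2A3 probe set overlapped (-0.46). Of the dimmer CA12 probe sets past the floor, the sorts were apart for some, in either direction (-0.79 and 0.55), and overlapped for the rest. Part of the SLC2A3 signal may belong to its near-identical paralog, which was not separated here.

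**Figure D2:**
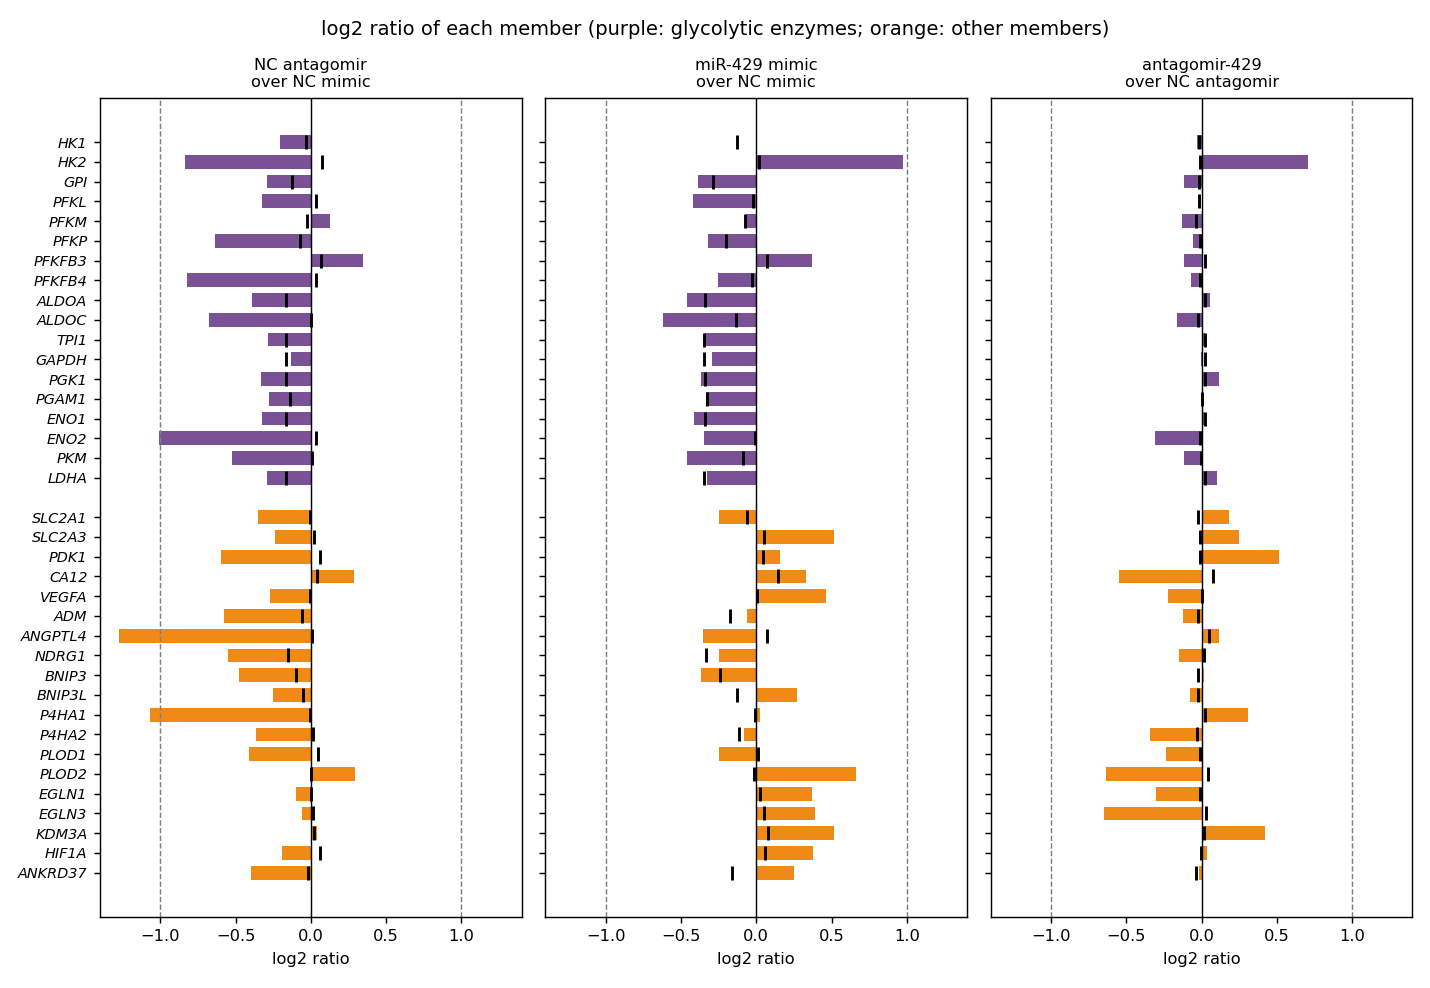
log2 ratio of each of the 37 measured genes in the 3 comparisons, with glycolytic enzymes in purple and the other members in orange. Black ticks give the median log2 ratio of the 200 expressed genes nearest in signal, and dashed lines mark 2-fold. ENO2, ANGPTL4 and P4HA1 reach the lower line in the comparison of controls, and no bar reaches a line with the mimic or the antagomir, where HK2 is the highest in both.

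Between the control arrays alone, the NC antagomir over the NC mimic, 32 of 37 members were below 0, beside 52.2% of expressed genes, and 5 above, beside 47.8%. The median was -0.32 for the 18 enzymes and -0.35 for the 19 other members, with -0.02 for all expressed genes. Bright genes were lower in general, with a median of -0.19 for the 100 brightest. Less the median of genes of like signal, the enzymes had -0.17 and the other members -0.35, and 31 of 37 stayed below. With the arrays rescaled to the hybridisation controls, the medians were -0.12 and -0.15, beside 0.18 for all expressed genes. A ratio more than 2 robust SD below genes of like signal was seen for 12 of 37 members, 7 of them enzymes, beside 3.53% of expressed genes, and for 0 members above, beside 4.1%. That rule was chosen after the values were seen.

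Hypoxia-induced genes that are not members gave a like picture. Of 34 listed genes 32 were expressed. For 21 of these both EpCAM-positive arrays lay below both EpCAM-negative arrays, with 2 above, beside 18.9% and 17.2% of expressed genes. The median difference between the sorts was -0.38. Examples, chosen after their values were seen, are HILPDA, a lipid droplet protein, with 5811 (antagomir-429) and 7668 (NC antagomir), against 12336 (mimic) and 13645 (NC mimic), a difference of -0.96, and MXI1, an antagonist of MYC, with 2696 (antagomir-429) and 2546 (NC antagomir), against 5610.1 (mimic) and 3981 (NC mimic), a difference of -0.85. Genes that regulate HIF had a median of 0.06 over 13 expressed of 14. Of these 1 gene lay below and 3 above, beside the same 18.9% and 17.2% of expressed genes. VHL, which marks HIF for destruction, had 448 (antagomir-429) and 449 (NC antagomir), against 396 (mimic) and 425 (NC mimic). The HIF partner ARNT had 679 (antagomir-429) and 644 (NC antagomir), against 827 (mimic) and 496 (NC mimic), the second HIF subunit EPAS1 had 2982 (antagomir-429) and 2086 (NC antagomir), against 3651 (mimic) and 1655 (NC mimic), and the inhibitor HIF1AN had 1351 (antagomir-429) and 1292 (NC antagomir), against 1442 (mimic) and 879.5 (NC mimic), so that the NC mimic array was the lowest for ARNT, EPAS1 and HIF1AN. EGLN2 was under the floor. MYC, a factor that also binds CACGTG, had 7662 (antagomir-429) and 9224 (NC antagomir), against 11010.2 (mimic) and 8887 (NC mimic), with overlapping sorts.

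Neighbouring pathways were less even. Glycogen and upper sugar genes had a median difference between the sorts of -0.29 over 10 genes, with 4 below and 1 above. Over all expressed genes 18.9% lay below and 17.2% above. PYGB, a glycogen phosphorylase, had a control log2 ratio of -1.91, but only its NC antagomir signal of 105 was low, where the other 3 arrays lay between 395 and 446. Pentose phosphate genes had a median of 0.07 over 6 genes, among which RPE, ribulose phosphate epimerase, had a control log2 ratio of -1.04. Pyruvate and lactate handling had 0.01 over 13 genes, and 6 housekeeping genes had 0.03. Other glycolytic isozymes and gluconeogenic genes had -0.07 over 15 expressed of 22. Of these 3 lay below and 3 above, close to the 18.9% and 17.2% of expressed genes. The 5 measured genes of the citric acid cycle and succinate dehydrogenase had 0.10.

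**Figure D3:**
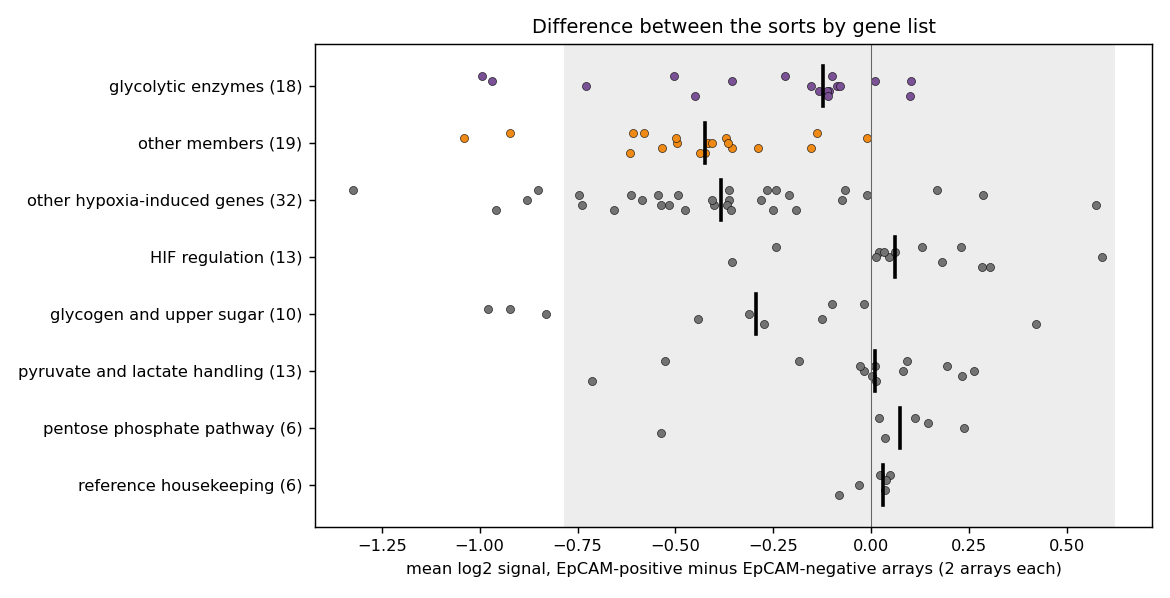
Mean log2 signal of the EpCAM-positive arrays minus that of the EpCAM-negative arrays (2 arrays each) for single genes, by list, with the number of expressed genes in brackets and the list median as a black bar. The grey band spans the 5th to 95th percentile of all expressed genes, -0.78 to 0.62. Medians of the other members (-0.43) and of other hypoxia-induced genes (-0.38) lie left of those of HIF regulators (0.06) and housekeeping genes (0.03).

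With the miR-429 mimic in EpCAM-negative cells, the enzymes and the other members lay on opposite sides of 0. Of 18 enzymes 15 were below 0, with a median log2 ratio of -0.34 over the NC mimic, beside 50.1% of expressed genes below 0. Of 19 other members 12 were above 0, with a median of 0.25, beside 49.9% of expressed genes. By the fold rule 0 of 37 members were at least 2-fold higher and 0 lower, where 5.25% and 3.76% of expressed genes were (9.01% either way). With scaling to the hybridisation controls 2 members, HK2 and PLOD2, were at least 2-fold higher, beside 14.5% of expressed genes.

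For the brightest enzymes, the low values with the mimic were close to those of other bright genes. Some less bright enzymes lay further below the median of genes of like signal. PKM had -0.46 against -0.09 (robust SD 0.33) and PFKL -0.42 against -0.02 (robust SD 0.42). Others lay above it, such as HK1 with 0.00 against -0.13. ENO1 had 64186 on the mimic array and 85342 on its control (-0.41), PGK1 57303 and 73967 (-0.37), TPI1 52068 and 66025 (-0.34) and GAPDH 57688 and 70645 (-0.29). The 100 brightest genes had a median of -0.36, with 100 of 100 below 0. Less the median of genes of like signal, the enzyme median was -0.046, with 11 of 18 below, and with quantile normalization it was -0.038. The median of the other members was 0.14 with median centring and 0.062 over all probe sets of each gene. With hybridisation control scaling the enzyme median was 0.076 and that of the other members 0.67, beside 0.41 for all expressed genes. Short genes were lower too: among brighter genes the median was -0.24 in the shortest of 5 equal bins by genomic span, which held 5 of the enzymes, and 0.27 in the longest, which held 2. The median span was 26.2 kb for enzymes and 37.7 kb for other members.

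ALDOC was the lowest enzyme relative to its control, though within 2 robust SD of genes of like signal. It had 12008 on the mimic array and 18429 on its control, a log2 ratio of -0.62, where genes of like signal had a median of -0.14 and a robust SD of 0.32. HK2 lay on the other side, with 7962 and 4050.3, a log2 ratio of 0.98 with a robust SD of 0.42 around 0.02. HK2 was the only member more than 2 robust SD above genes of like signal, beside 3.83% of expressed genes, and 0 members were below by that rule, beside 2.33%. HK1 was even (9108 and 9087, 0.00).

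Among the other members the highest with the mimic was PLOD2 (802 with the mimic and 508 with its control, 0.66), which stiffens collagen by hydroxylating lysines, followed by KDM3A (618 and 432, 0.52), SLC2A3 (2663 and 1859, 0.52) and VEGFA (4827 and 3507, 0.46). On their brightest probe sets, all 5 genes of the oxygen sensing and chromatin group were above 0, beside 49.9% of expressed genes. HIF1A had 1271 and 977 (0.38), EGLN1 0.37, EGLN3 0.39 and ANKRD37 0.25. Dimmer probe sets past the floor did not all have this sign, with -0.41 for EGLN3, -1.13 for ANKRD37, and 0.32 and -0.04 for EGLN1. BNIP3 had the lowest value, -0.37. Genes that regulate HIF had a median of 0.71 with the mimic, 9 of 13 above 0, beside the same 49.9%. At least 2-fold higher there were EPAS1 (1.14) and the coactivator EP300 (312 and 141, 1.14), beside 5.25% of expressed genes. The histone demethylase KDM5B (1286 and 579, 1.15) and PPP1R3B, which targets a phosphatase to glycogen (553 and 253, 1.13), passed that mark in their lists. Other hypoxia-induced genes had a median of 0.14, with 21 of 32 above 0, beside 49.9% of expressed genes.

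**Figure D4:**
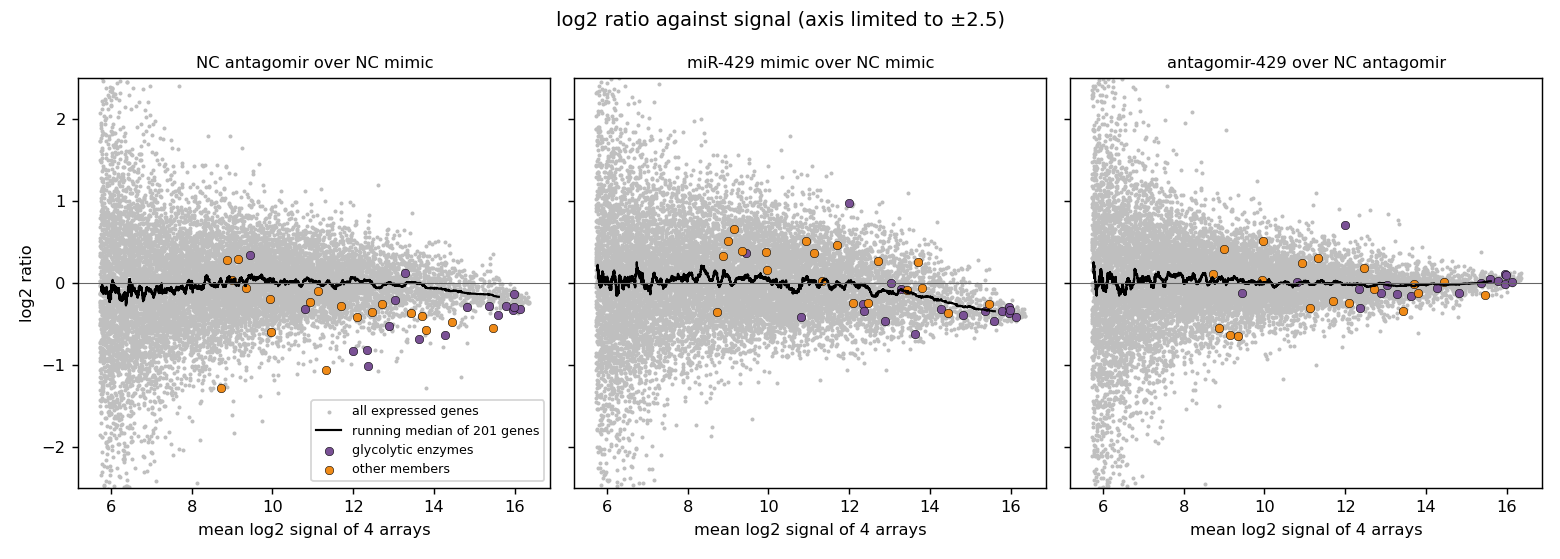
log2 ratio against mean log2 signal over the 4 arrays in the 3 comparisons, for all 13180 expressed genes in grey, with glycolytic enzymes in purple and other members in orange. The black line is the running median over genes ordered by signal. With the mimic the line bends below 0 at bright signals and most enzymes lie close to it, while HK2 lies above. In the comparison of controls many members lie below the line.

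In EpCAM-positive cells antagomir-429 left the enzymes close to their control. The median log2 ratio was -0.02 over 18 enzymes and -0.07 over 19 other members, beside 0.01 for all expressed genes, and 10 and 11 were below 0, beside 49% of expressed genes. In all 16 of 37 members were above 0, beside 51%. By the fold rule 0 of 37 members were at least 2-fold higher and 0 lower, where 3.72% and 3.53% of expressed genes were (7.25% either way). At 1.5-fold HK2 was higher, beside 9.35% of expressed genes, and PLOD2 and EGLN3 were lower, beside 8.29%. The added control transcripts described above also differed least between these arrays.

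HK2 was again the highest enzyme, at 3707 on the antagomir-429 array and 2271 on its control, a log2 ratio of 0.71 and a robust SD of 0.16 among genes of like signal. It was higher with each reagent than with that reagent's own control. PDK1, at 1027 and 719 (0.51), was the other member more than 2 robust SD above genes of like signal, beside 4.36% of expressed genes. Below them by that rule were 6 members, beside 4.1% of expressed genes: EGLN3 (424 with the antagomir and 665 with its control, -0.65), PLOD2 (399.6 and 622, -0.64), CA12 (371 and 542, -0.55), P4HA2 (8307 and 10530.4, -0.34), ENO2 (3360.5 and 4164, -0.31) and NDRG1 (36308 and 40258, -0.15). For PDK1 and P4HA2 this depended on the probe set, since their dimmer probe sets past the floor had 0.05 and -0.03. Outside the members, PYGB (2.09) and PDP1, a pyruvate dehydrogenase phosphatase (239 and 119.6), were at least 2-fold higher. ARNT2, a partner of HIF (80.5 and 174, -1.11), was lower.

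A message that follows miR-429 would differ in sign between the mimic and the antagomir comparisons, which share no array. Of 37 members 19 had opposite signs, beside 45.1% of expressed genes, and 0 were past 2-fold in opposite directions, beside 0.721%. EGLN3 had 0.39 with the mimic and -0.65 with the antagomir, PLOD2 0.66 and -0.64, CA12 0.33 and -0.55, and EGLN1 0.37 and -0.31. The dimmer EGLN1 probe sets past the floor had the same sign in both, at 0.32 and 0.16, and at -0.04 and -0.14. Of the dimmer CA12 probe sets past the floor, 1 had opposite signs (0.06 and -0.31). The rest had -0.05 and -0.32, 0.60 and 0.62, and -0.45 and -0.52. Below 0 in the mimic comparison and above 0 in the antagomir comparison, the order of a message that miR-429 represses, were 10 members, beside 23.1% of expressed genes. Among them were SLC2A1 at -0.24 and 0.18 and PGK1 at -0.37 and 0.12. Other probe sets of these genes past the floor did not give this order. The dimmer SLC2A1 probe set had 0.06 and -0.93. The next brightest PGK1 probe sets had -0.34, -0.37 and -0.17 with the mimic and -0.04, -0.04 and -0.06 with the antagomir. Above 0 with the mimic and below 0 with the antagomir were 9 members, beside 22%. The same sign in both comparisons was seen for 6 members above 0, beside 27.9%, and for 12 below 0, beside 27%. HK2, SLC2A3, PDK1, P4HA1, KDM3A and HIF1A were the 6 above.

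Probe sets of the same gene differed in how well they followed each other. The members had 84 single-symbol probe sets, 76 of them past the floor, and 39 of these were not the brightest of their gene. In the comparison of controls 34 of 39 had the sign of the brightest, with the mimic 22 and with the antagomir 22. The 3 dimmer VEGFA probe sets had differences between the sorts of -0.57, -0.62 and -1.29, beside -0.62 for the brightest. The second ANGPTL4 probe set had -0.69 and the second PFKFB4 probe set -0.71. On that PFKFB4 probe set the sorts overlapped, and the control log2 ratio was 0.05, against -0.82 for the brightest. The dimmer HK2 probe sets, with signals of 83.8 to 203, did not follow the brightest: their differences between the sorts were 0.92 and 0.08, and with the mimic they had 0.43 and -0.72. For EGLN3 the dimmer probe set had -0.41 with the mimic and 0.38 with the antagomir, against 0.39 and -0.65 for the brightest, and the dimmer PLOD2 probe set had 0.45 and -0.03.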

How the data were processed

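Total RNA of 4 samples was labelled with biotin and hybridised to 1 array each. The deposited values are log2 signals; MAS5 is named in the submitters' processing notes, and the version is not given in the sources used here. On the linear scale each array had a mean signal of 500.1 once 2% of values were trimmed from either end, so the authors' scaling was kept. Symbols came from the platform annotation, updated through Entrez identifiers, with 41091 non-control probe sets of 1 symbol; 62 control probe sets were left out of gene counts. RefSeq supplied sequences and gene spans.

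Differences are log2 ratios between arrays, computed with Python 3.11.15, pandas 2.3.3 and numpy 2.4.6, with no offset. Genes past 2-fold, and members whose sorts did not overlap, were counted beside the same over all expressed genes. No p-value was computed, since each group has 1 array; the number of arrays limits the precision. The scatter of the 200 expressed genes nearest in signal is a spread across genes, not replicates. The calculation was tested on simulated data.

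The members and lists were chosen with earlier results of these data known. All members could be named. From companion lists, up to 4 genes per list and comparison past 2-fold with both arrays at or above the floor were named, besides VHL, ARNT, EPAS1, HIF1AN, EGLN2 and MYC; any further gene is marked in the text. Of 34 hypoxia-induced genes, 22 isozyme and gluconeogenic, 15 pyruvate and lactate, 14 HIF-regulating, 10 glycogen, 8 oxidative, 7 pentose phosphate and 7 housekeeping genes, those expressed were summarised. Alternatives tried were quantile normalization and median centring, scaling to hybridisation controls, an offset, other filters, all probe sets of a gene, a 1.5-fold threshold and another control array.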

Additional observations from a re-analysis of the deposited data

How the results depend on the processing

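No paired analysis was possible because each group had 1 array, and no replicate could be left out. With no filter, a stricter filter at a signal of 265.6, or an offset of 5.97 before log2, no list median or count moved by more than the limits set for it. Median centring, which put the median of all genes with the mimic at -0.11 and its 2-fold split at 549 higher and 628 lower (as deposited, 692 and 496), gave mimic medians of -0.45 for enzymes and 0.14 for other members. Quantile normalization gave enzyme medians of -0.038 with the mimic and -0.18 between controls, and 1 member with EpCAM-positive arrays above. Over all probe sets of a gene, the other members had 0.062 with the mimic. Hybridisation control scaling, added after the data were seen, turned the enzyme median with the mimic to 0.076 and gave 0.67 for other members there, -0.12 and -0.15 between controls, and 2-fold counts of 2 members higher under the mimic and 1 lower between controls; it moves the median of all genes by 0.42 and 0.20. Less genes of like signal, also added, the enzyme medians were -0.046 and -0.17. With the NC antagomir array as the mimic's control the medians were -0.035 and 0.48. At 1.5-fold, 2 members were higher and 1 lower with the mimic, 1 higher and 2 lower with the antagomir, and 8 lower between controls, beside 14.5%, 10.9%, 9.35%, 8.29% and 12% of expressed genes. Sorts did not overlap, EpCAM-positive below, for 20 to 29 members under the scalings and probe set rules tried. Of the single-gene values, 98 moved beyond the spread among equally bright genes and 790 did not; the cause was not tested.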
